A study of Mus musculus with 6 samples.

Results

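Transcript levels in mouse tibialis anterior, a fast muscle at the front of the shin, were compared between muscle taken 48 h after 50 eccentric contractions and control muscle. The series holds 6 Affymetrix MGU74Av2 arrays, and the comparison uses 4 of them, the arrays A and B of the eccentric pool and the arrays A and B of the control pool. It covers the 10833 of 12488 probe sets that carry a single gene in the platform annotation, which stand for 8251 genes. In an eccentric contraction the active muscle is stretched, and here it was imposed on live animals without surgery. The control muscle came from legs opposite to exercised ones and received no more stimulation than a measurement of isometric torque needs. The labels leave out which exercise the animals' other legs had done, and they give no strain, age or sex. For each group total RNA from 4 animals was combined into 1 pool, and the pool was divided between its arrays. A group is therefore 1 biological sample, the spread between its arrays covers labelling and hybridisation only, and no p-value was computed. Every statement below describes these pools.

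Lengthening an active muscle overstretches sarcomeres, the repeating contractile units anchored at the Z-discs, and can tear the fibre membrane. Damaged fibres release signals that draw in phagocytes, first neutrophils and then monocytes that become macrophages, which clear debris while satellite cells, the stem cells of muscle, begin repair. Fibres also respond to stretch itself, through Z-disc proteins that act as strain sensors and through chaperones that hold unfolded proteins.

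A gene entered the comparison when its signal lay above a floor of 120.8, the 40th percentile of all deposited values, on both arrays of either pool. This left 5682 genes, while 2569 did not enter. A gene was called when its mean log2 signals, raised to the floor, lay 1 or more apart (2-fold) and each of the 4 pairings of an eccentric with a control array had that sign. The pools of every called gene are therefore separate by the rule, and remarks below that they do not overlap add no support. The values of each gene are given for array A and then array B, and folds divide the geometric means of the floored signals. With both arrays of a pool at or under the floor, the fold is given as at least its value. By this rule 293 genes (5.16% of those that entered) were called higher in the eccentric pool and 60 (1.06%) lower, 353 in all (6.21%). These percentages are the background for each count below. The large differences were lopsided, with 71 genes at least 3-fold higher against 4 at least 3-fold lower. At 4-fold or more there were 23 higher and 0 lower. These counts take floored signals, so genes under the floor in a pool count with the smallest fold they could have. Of all genes that entered, 2732 had a log2 difference above 0 and 2950 below 0. The median log2 difference of the genes that entered was -0.02, from -0.29 at the 25th percentile to 0.30 at the 75th. Counts and medians of gene lists cover the members that entered. The lists were drawn up with earlier results of these data known, so no list count is independent evidence. Of the genes called higher 34 lay below the floor on both control arrays, and of those called lower 4 lay below it on both eccentric arrays. Such genes entered through the pool where they are high and could be called in 1 direction only.

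**Figure D1:**
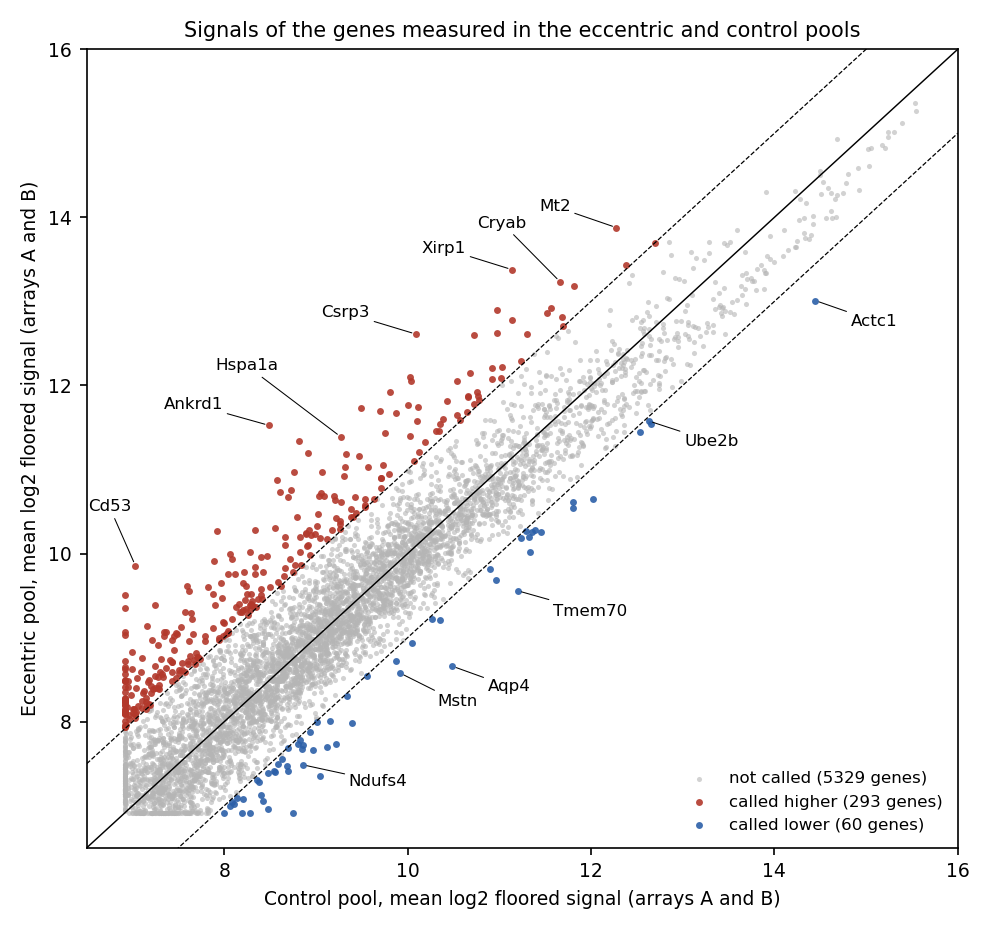
Mean log2 floored signal of each gene that entered, control pool on the horizontal axis and eccentric pool on the vertical axis, with the line of equality (solid) and the lines of a 2-fold difference (dashed). Genes called higher (293, red) lie above the upper dashed line and genes called lower (60, blue) below the lower one, so the points above 2-fold outnumber those below it.

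The tissue and the arrays were checked first. All 10 fibre markers, among them creatine kinase (Ckm), skeletal actin (Acta1) and the fast myosin heavy chain Myh4, lay above the floor on all 4 arrays, and 0 of them were called. Their summed signal was 308798 and 250877 on the control arrays and 223242 and 216846 on the eccentric arrays, so the control arrays differed from each other by more than the eccentric pool lay below the lower of them. Macrophage markers, with 11 genes on the array, summed to 7981 and 8275 in the control pool and 25007 and 24891 in the eccentric pool, and 10 of the 11 were called higher. In a whole muscle, more cells of a type and more RNA per cell cannot be told apart. The marker lists of endothelium, fibroblasts, adipocytes, Schwann cells and red blood cells held no called gene. Of 7 T cell markers 6 (Cd3d, Cd3e, Cd3g, Cd8a, Cd2 and Cd5) lay below the floor on all 4 arrays. For beta-actin the log2 ratio of the 3' over the 5' probe set was 0.01 and 0.07 on the control arrays and 0.43 and 0.46 on the eccentric arrays, and that of Gapdh was -0.05 and -0.07 against 0.12 and 0.13. Both ratios thus differed between the pools in the same direction, and their part in the results was not tested. Between arrays of a single pool, 172 genes (3.03%) differed at least 2-fold in the control pool and 64 (1.13%) in the eccentric pool. Of the 353 called genes 39 rest on probe sets with the suffix f, s or r. These suffixes mark probes shared with similar sequences or chosen under relaxed rules. Among the 39 are those of Actc1, Atf3, Atp2a2, Cd68, Cryab, H2-D1, H2-K2, Junb, Mcm3, Rag1, Sar1b and the called tubulins Tuba1c, Tubb3, Tubb5 and Tubb6. A further 6 called genes have the suffix g and 2 the suffix i, outside this count.

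**Figure D2:**
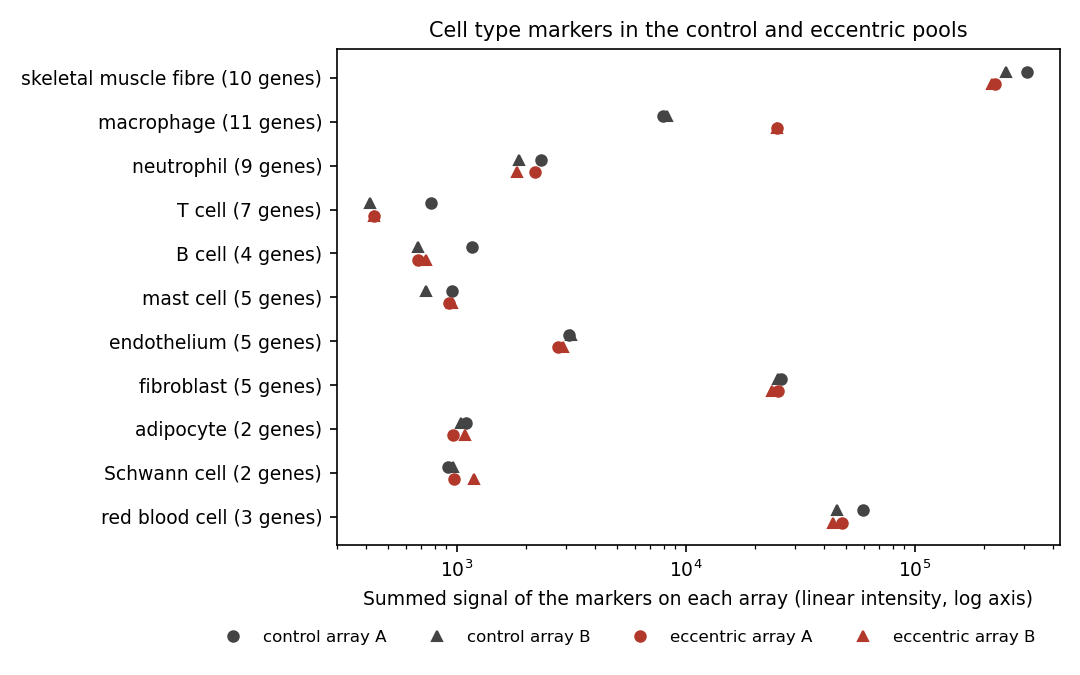
Summed signal of the markers of each cell type (log axis) on the control arrays (dark) and eccentric arrays (red), circles for array A and triangles for array B. The macrophage sums are separated, 7981 and 8275 against 25007 and 24891, while those of fibroblasts and endothelium lie close together.

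Promoter sequences were set beside the stress genes, because heat shock and metal response elements are the DNA sites through which heat shock factors and the metal sensing factor act on chaperone and metallothionein genes. RefSeq windows of GRCm38.p6 reach from 250 bases before to 50 bases after each annotated start, and 230 of the 293 genes called higher and 45 of the 60 called lower had at least 1 window. The heat shock element was searched as GAANNTTC and the metal element as TGCACNC or TGCGCNC, on both strands. The windows given here, up to 30 bases after the start, belong to 3 of the most strongly higher stress genes with a heat shock element, Hspa1a (chr17:34972127-34972406, minus strand), Ankrd1 (chr19:36119815-36120094, minus strand) and Csrp3 (chr7:48843642-48843921, minus strand), and to both higher metallothioneins, Mt1 (chr8:94178839-94179118, plus strand) and Mt2 (chr8:94172368-94172647, plus strand). Capitals mark the heat shock element in the first 3 and the metal elements, on either strand, in the last ones.
Hspa1a: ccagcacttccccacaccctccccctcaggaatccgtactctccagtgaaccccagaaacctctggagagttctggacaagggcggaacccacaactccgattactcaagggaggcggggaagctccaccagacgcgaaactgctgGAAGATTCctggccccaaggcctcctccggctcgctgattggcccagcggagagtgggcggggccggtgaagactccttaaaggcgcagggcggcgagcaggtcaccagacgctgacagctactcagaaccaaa
Ankrd1: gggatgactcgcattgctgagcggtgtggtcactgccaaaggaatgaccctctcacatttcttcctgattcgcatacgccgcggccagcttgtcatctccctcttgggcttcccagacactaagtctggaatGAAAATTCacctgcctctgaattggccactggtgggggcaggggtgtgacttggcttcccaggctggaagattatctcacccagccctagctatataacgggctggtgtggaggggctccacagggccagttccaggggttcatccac
Csrp3: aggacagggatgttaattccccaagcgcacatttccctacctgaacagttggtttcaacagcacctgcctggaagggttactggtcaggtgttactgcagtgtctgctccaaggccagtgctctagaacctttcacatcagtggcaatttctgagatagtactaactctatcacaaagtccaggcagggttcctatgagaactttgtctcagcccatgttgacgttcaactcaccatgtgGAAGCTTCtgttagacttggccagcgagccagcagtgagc
Mt1: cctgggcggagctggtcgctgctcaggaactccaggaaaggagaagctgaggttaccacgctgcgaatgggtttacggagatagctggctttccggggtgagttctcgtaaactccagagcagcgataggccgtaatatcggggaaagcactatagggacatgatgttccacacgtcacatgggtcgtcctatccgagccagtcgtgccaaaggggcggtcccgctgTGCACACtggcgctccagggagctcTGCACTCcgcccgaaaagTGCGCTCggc
Mt2: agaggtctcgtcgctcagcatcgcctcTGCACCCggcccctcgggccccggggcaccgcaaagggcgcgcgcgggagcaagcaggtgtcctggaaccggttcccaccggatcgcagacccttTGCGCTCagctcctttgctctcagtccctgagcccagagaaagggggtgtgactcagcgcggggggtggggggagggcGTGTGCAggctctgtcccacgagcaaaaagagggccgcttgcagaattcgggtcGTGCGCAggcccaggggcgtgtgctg
The heat shock element begins 104 bases before the start in Hspa1a, 118 bases before it in Ankrd1 and 10 bases before it in Csrp3, whose other annotated window holds none. The Mt1 window holds 3 metal elements and the Mt2 window 4. Such matches are descriptions of letters and not of bound sites. The heat shock element occurs in 7.86% of all 32851 windows, in 5.61% of the windows of genes that entered, in 7.14% of those of genes called higher and in 6.67% of those of genes called lower. The metal element is more common, at 25.7% of all windows, 34.9% of those of genes that entered, 30.5% for genes called higher and 45% for genes called lower. Among called chaperones 2 of 4 windows hold a heat shock element, and among called Z-disc genes 2 of 5. These are few windows, since only 4 of the 6 genes called higher in either list had one. Cryab, Hsp90aa1 and Xirp1 had none, and both windows of Csrp3 are counted.

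Several genes of the Z-disc and of strain sensing had large differences. Ankrd1 binds titin in the sarcomere and also enters the nucleus. Its signals were 273 and 473 on the control arrays and 2989 and 2909 on the eccentric arrays. The difference was 8.21-fold, the only one above 8-fold on floored signals, where genes under the floor in a pool have only a minimum fold. Csrp3, the muscle LIM protein that links stretch to the Z-disc, read 1049 and 1133 in the control pool and 6022 and 6505 in the eccentric pool. In both genes each eccentric array lay several times above either control array. Xirp1, an actin-binding protein of muscle attachment sites, had 2251 and 2256 against 10913 and 10393, and Ankrd2, the relative of Ankrd1, 1107 and 998 against 4260.3 and 4246. The arrays of each pool lay close together and the pools far apart. Cryab, a small chaperone that protects desmin and actin filaments, was 2.97-fold higher (3344 and 3140.2 against 9739.9 and 9542). Pdlim3, a partner of alpha-actinin, passed narrowly at 2.01-fold. All 17 genes of the list that are on the array entered, 6 were called higher and 0 lower, and the median log2 difference was 0.25. The list was drawn up knowing that these genes stand out, so its count is no independent evidence. The other 11 did not pass, and they include the structural proteins of the disc: the log2 difference was -0.15 for Actn2, -0.39 for Actn3, -0.62 for the titin cap Tcap, -0.57 for Myoz1, -0.52 for Ldb3 and 0.18 for desmin (Des). The intermediate filament nestin (Nes), which is found in regenerating fibres and outside the list, read 832 and 827 in the control pool and 3335 and 3282 in the eccentric pool, a 3.99-fold difference. The Z-disc calls held with any single array left out, except that of Pdlim3 (0.86 without control A and 0.99 without eccentric B).

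**Figure D3:**
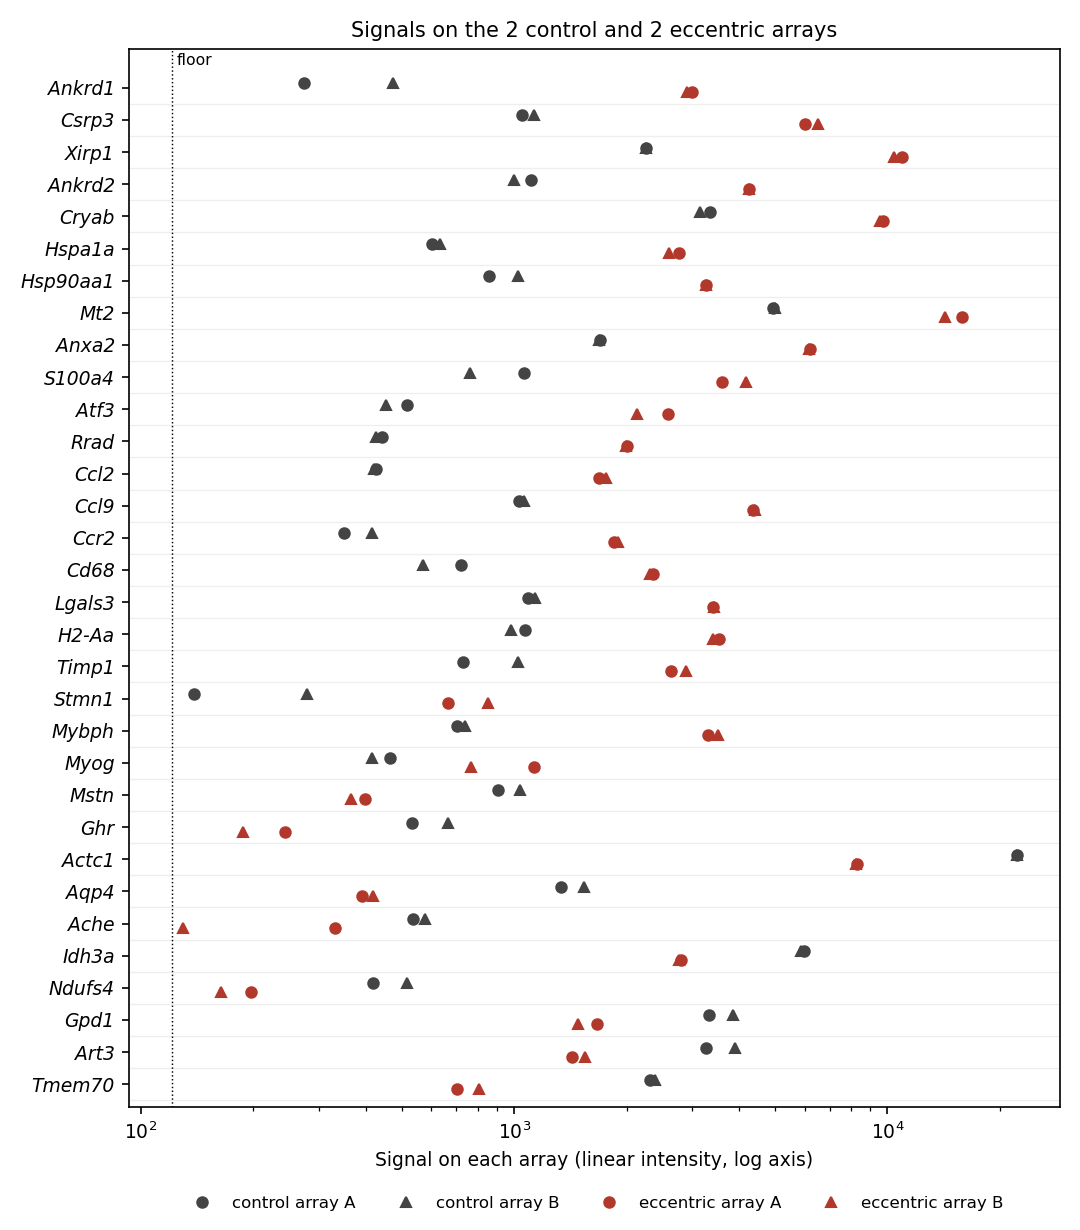
Signal of 32 genes on each array (log axis), control arrays dark and eccentric arrays red, circles for array A and triangles for array B, with the floor as a dotted line. All were called, so by the rule the eccentric arrays are separate from the control arrays. They lie to the right for the genes from Ankrd1 to Myog and to the left for those from Mstn to Tmem70.

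Chaperones were higher in a subset. Hspa1a, the stress-inducible Hsp70, had 601 and 635 in the control pool and 2770.4 and 2600 in the eccentric pool, 4.35-fold higher. Its near-identical neighbour Hspa1b, whose probe set could share signal with it, had a log2 difference of 0.77 and did not pass. Hsp90aa1, the inducible cytosolic Hsp90, read 855 and 1023 against 3263 and 3273, and the small heat shock protein Hspb8, which works with the co-chaperone Bag3, 5761 and 4963 against 11160 and 10952. Neither gene's pools overlapped. Of 30 chaperone genes that entered, out of 33 on the array, 6 were called higher, 1 lower, and the median was 0.28. The lower gene was Dnajb5, an Hsp40 co-chaperone, with 310.3 and 278 against 72.7 and 57.7, under the floor on both eccentric arrays and at least 2.43-fold lower. The constitutive Hsp70 Hspa8 (log2 difference -0.08), mitochondrial Hspa9 (-0.05) and the Hsp40 genes Dnajb1 (-0.05) and Dnaja2 (-0.87) did not pass, and neither did the Hsp70 regulator Bag3 (0.60), Hsph1 (0.76) or the mitochondrial chaperonin pair Hspd1 (0.33) and Hspe1 (0.91). None of the 12 subunits of the cytosolic chaperonin TRiC and of prefoldin that entered passed, with a median of 0.20, or 0.10 without eccentric array A. A chaperone call ended with 1 array left out for Hspb8 (0.94 without control B).

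Some chaperones of the endoplasmic reticulum were higher, 4 of the list. Hspa5, the lumenal Hsp70 known as BiP, had 1967 and 1923 against 4309 and 4334, and Hsp90b1, the lumenal Hsp90, 1580.1 and 1657 against 3725 and 3758. The pools of both were separate, by 2.22-fold and 2.31-fold. Manf, a secreted folding factor, was 2.57-fold higher and the disulphide isomerase Pdia3 2.06-fold higher. Of 18 genes of the list that entered 4 were called higher and 0 lower, with a median of 0.35 that was 0.20 without control array A and 0.55 without control array B. The stress-signalling genes of the list did not pass, with log2 differences of 0.75 for the transcription factor Xbp1, 0.31 for Ddit3, 0.05 for Atf4, -0.20 for Trib3 and -0.20 for Herpud1. With an array left out the call ended for Pdia3 (0.79 without control A and 0.92 without eccentric B).

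The metallothioneins Mt1 and Mt2, which bind zinc and copper, were higher, while most redox enzymes were not. Mt2 had 4932 and 4998 in the control pool and 15858 and 14297 in the eccentric pool, 3.03-fold higher, and Mt1 had 1906 and 1606 against 3838 and 3701, 2.15-fold higher. The eccentric arrays of both lay well above their control arrays. Mt3, the form known from brain, had a log2 difference of -0.37. Hmox1, which opens the heme ring and releases iron, read 1393 and 1236 against 3058 and 2909. In the list 31 of 33 genes entered, these 3 were called higher and 0 lower, and the median was 0.05. Superoxide dismutases did not pass, with log2 differences of -0.18 (Sod1), -0.52 (Sod2) and 0.80 (Sod3), nor did catalase (Cat, 0.05), Gpx1 (0.11) or Gpx3 (-0.57). Targets of the antioxidant factor Nfe2l2 were also short of the rule, at 0.05 for Nqo1 and 0.09 for Gclm. Among iron genes Slc11a1, a metal transporter of phagosomes, was 2.61-fold higher, and 2 of 13 that entered were called, with a median of -0.19. Ferritin heavy chain (Fth1) had -0.18 and the transferrin receptor (Tfrc) -0.31. Among these genes, leaving out 1 array ended the call of Mt1 (0.98 without control B).

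Some annexins and S100 proteins, calcium-binding proteins of which several assemble at injured membranes, were higher. Anxa2 had 1697 and 1683 against 6217 and 6164, 3.66-fold higher. Anxa4 (2.59-fold), Anxa5 (2.33-fold) and Anxa1 (2.17-fold), which also limits inflammation, were higher too, whereas Anxa3 (log2 difference 0.73) and Anxa6 (0.21) did not pass. Of 15 genes of the annexin and membrane repair list that entered 5 were called higher and 0 lower, with a median of 0.38 that was 0.18 without control array B. S100a4, a motility protein of fibroblasts and leukocytes, read 1059 and 759.5 in the control pool and 3614 and 4177 in the eccentric pool, and S100a6 3639 and 3592 against 8832 and 9841. Either S100 gene was clearly separated between pools. S100a10, the partner of Anxa2, was 2.07-fold higher. Of 11 S100 genes on the array 8 entered and 5 were called higher, with a median of 1.14. Over the S100 genes on the array, with no floor and on log2(signal + 100), the median was 0.60. S100a1, the form of muscle fibres, did not pass at -0.48. Other probe sets, dimmer than those used and not all called, gave log2 differences of 0.83 to 1.48 for Anxa1 and -0.05 for S100a10.

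Immediate early genes, which respond within minutes to stimulation, were mostly not called at 48 h. Atf3, a stress-induced repressor, had 515 and 453 against 2591 and 2136, 4.87-fold higher, and Rrad, a small GTPase that restrains calcium channels, 443 and 426 against 2009.7 and 1989, 4.60-fold higher. No control array of either gene came near an eccentric one. Junb, a subunit of AP-1, had 216 and 487 against 758 and 991, with the control arrays more than 2-fold apart. Gadd45a, a growth arrest gene, passed at 2.03-fold. Of 35 genes on the array 31 entered, 4 were called higher and 0 lower, and the median was 0.28. Without control array A 2 were called higher, and without control array B the median was 0.17. The AP-1 subunits Fos (log2 difference 0.47), Jun (-0.03), Fosl1 (0.10) and Fosl2 (-0.38) did not pass, nor did Egr1 (-0.23), Nr4a1 (-0.65), Gadd45b (-0.69) or Cdkn1a (0.78). With 1 array removed the calls ended for Gadd45a (0.92 without control A and 0.996 without eccentric A) and Junb (0.83 without control A).

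Several chemokines that attract monocytes were higher. Ccl2 had 427 and 421 against 1688 and 1767, Ccl7 306 and 183 against 970.4 and 953 and Ccl9 1028 and 1062 against 4375 and 4422. These genes were 4.07-fold, 4.06-fold and 4.21-fold higher with no overlap between pools. Ccl8, another monocyte attractant, had 77.1 and 199 against 507 and 461, with a control array below the floor. The neutrophil attractants Cxcl2 (at least 2.34-fold) and Cxcl5 (at least 2.57-fold) had control signals under the floor, and Cxcl1, with a log2 difference of 0.90, did not pass. Il1b was 2.53-fold higher and Il1rn, the antagonist of its receptor, 3.14-fold higher. Of 38 chemokine and cytokine genes on the array 21 entered, and 9 were called higher and 0 lower, with a median of 0.90. Both values depend on the floor, since 4 were called with the floor at the 60th percentile and the median of the genes on the array was 0.17 on log2(signal + 100). The other 17 stayed under the floor in at least 1 array of each pool and did not enter, among them Tnf, Il6, Il10, Ccl4 and Ccl5. Ccl11, which attracts eosinophils, had a log2 difference of -0.41, Ccl3 one of 0.46 and Ccl12 one of 0.32, none of them called.

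Among receptors of chemokines and cytokines fewer were called. Ccr2, the receptor for Ccl2 and Ccl7 on monocytes, read 350.0 and 417 in the control pool and 1850.2 and 1903 in the eccentric pool, 4.91-fold higher. Ccr1, a receptor of Ccl9, was 2.15-fold higher, Csf1r, the receptor for the macrophage growth factor Csf1, 2.43-fold higher, and Il10rb, a subunit of the interleukin-10 receptor, 3.04-fold higher. Il4ra, the interleukin-4 receptor chain, was under the floor on the control arrays (45.6 and 96.0) and had 568 and 482 in the eccentric pool, at least 4.33-fold. In all 6 of 25 receptor genes that entered were called higher and 0 lower, with a median of 0.59, and 3 were called with the floor at the 60th percentile. Cx3cr1, the marker of patrolling monocytes, had -0.32, and Csf3r, the neutrophil growth factor receptor, -0.88, neither called. Among integrins and adhesion genes Itgb2, the beta chain shared by leukocytes, was called higher (87.5 and 209 against 473 and 390), 1 of 13 that entered, and Selplg (0.81) and Itgb1 (0.36) did not pass. For Csf1r and Il4ra the choice of probe set decides the call, with a second probe set at a log2 difference of -0.28 for Csf1r and -0.21 for Il4ra. Without 1 array the call was lost for Ccr1 (0.97 without eccentric A).

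Macrophage and monocyte genes made the list with the highest median, 1.55, against -0.02 for the genes that entered. Of 31 on the array 26 entered, 17 were called higher and 0 lower, and 3 of those that entered lay at the floor in the control pool, so they could only be higher. With the mean over all probe sets of a gene 11 were called higher and the median was 0.93. Cd68, a lysosomal protein of macrophages, had 720.3 and 569.8 against 2358 and 2313. Lyz2, lysozyme, had 1964 and 2070.1 against 6227 and 6374, and Lgals3, galectin-3, 1088 and 1134 against 3412 and 3424. In each of these every eccentric array was at least 3-fold above either control array. Adgre1, which encodes the F4/80 antigen, had 65.0 and 157 against 447 and 416, the scavenger receptor Msr1 137 and 148 against 630.2 and 507 and the mannose receptor Mrc1 199 and 315 against 761 and 846. No pools of these genes overlapped, although their control arrays lay near or below the floor for Adgre1 and Msr1. Cd53, a leukocyte tetraspanin, was 7.09-fold higher, but control array A lay under the floor and control array B read 142, so the fold rests on a value set to the floor. Spi1, the transcription factor PU.1 of myeloid cells, was 2.90-fold higher, Mpeg1 (perforin-2) 2.61-fold and the lectin Clec4d, below the floor in the control pool, at least 3.33-fold. Members that did not pass include Cd36 (log2 difference -0.47), Chil3 (0.62), C5ar1 (0.04) and Cd14, which at 1.996-fold was just short of the rule. The Fc receptor Fcgr1 was higher as well (2.13-fold). Other probe sets, not called, had log2 differences of 0.75 for Fcgr1 and 0.90 for Msr1. With an array left out 1 macrophage call ended, that of Fcgr1 (0.997 without control A).

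Genes of immune signalling and of complement were higher in part, and which cells carry these transcripts was not tested. Tyrobp, the adaptor of activating myeloid receptors, had 642 and 449 against 1964 and 2063, and Cyba and Ncf4, subunits of the phagocyte oxidase, were 3.27-fold and 3.31-fold higher. The catalytic subunit of that oxidase, Cybb, had a log2 difference of 0.14 and did not pass. The kinases Syk (-0.08), Btk (0.54) and Fgr (-0.25) and the phosphatase Ptprc, or CD45 (0.88), did not pass either. Of 20 genes of the signalling list that entered 5 were called higher, with a median of 0.48, and 6 lay at the floor in the control pool. The count was 11 with the floor at the 20th percentile and 3 with it at the 60th. Among complement genes C1qa had 799 and 873 against 1869 and 1967 and C1qb 777 and 746 against 2171 and 2013. Properdin (Cfp), which stabilises the alternative pathway convertase, read 140.4 and 163 against 650.1 and 692, 4.43-fold higher, and the anaphylatoxin receptor C3ar1 was 2.83-fold higher. Thus 4 of 12 complement genes that entered were called higher, with a median of 0.65 (0.39 without control array B, and 0.10 on log2(signal + 100) over the genes on the array), while C1qc (0.67), C2 (0.10) and the inhibitor Serping1 (-0.07) did not pass. Another probe set differed in sign, with a log2 difference of -0.62 for C1qb.

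Among genes of antigen presentation on MHC class II 5 of the 8 that entered were higher. H2-Aa had 1072 and 983 against 3531 and 3419, H2-Ab1 431 and 521 against 1366 and 1064, and Cd74, the invariant chain that escorts class II molecules, 3014 and 2856 against 7768 and 7097. In each the eccentric arrays were more than 2-fold above the control arrays. The peptide editors H2-DMa and H2-DMb1 were 3.59-fold and 2.56-fold higher. Of 14 genes on the array 8 entered, 5 were called higher and 0 lower, with a median of 1.34. The median over the genes on the array, on log2(signal + 100), was 0.32. H2-Eb1 (log2 difference 0.82) and the class II activator Ciita (0.37) did not pass. In the class I list 3 of 14 were called, H2-D1 (1195 and 1134 against 2564 and 2590), the immunoproteasome subunit Psmb8 (349 and 378 against 786 and 764) and Pdia3. B2m (0.37), Tap1 (0.97) and Psmb9 (0.80) did not pass. H2-K2, a class I gene outside the list with a probe set that other class I genes may share, had 303 and 673 against 2816 and 2401. Of 17 interferon response genes that entered 2 were called higher, Irf8 (2.17-fold), a factor of the monocyte lineage, and the lysosomal thiol reductase Ifi30 (3.38-fold), and the median was 0.33, or 0.16 without eccentric array A. The antiviral genes Isg15 (0.97), Irf7 (0.47), Mx2 (-0.48) and Iigp1 (-0.11) were not called. Other probe sets that were not called gave 0.25 to 0.49 for H2-D1. The single array loss that mattered was for Pdia3 (0.79 without control A and 0.92 without eccentric B).

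Markers of other cell types were read against the background of 5.16% called higher. Neutrophil genes held 2 calls among 8 that entered of 18 on the array, the calgranulins S100a8 (144 and 123 against 355 and 382) and S100a9 (65.2 and 112 against 248 and 327), which monocytes also express. S100a9 lay under the floor on both control arrays and could be called higher only. Under other processing settings the count of higher calls fell to as few as 0. The summed signal of the 9 neutrophil markers was 2338.4 and 1871.2 in the control pool and 2184.5 and 1825.7 in the eccentric pool. The granule genes Mpo (log2 difference -0.08), Elane (-0.44), Camp (0.02) and Lcn2 (-0.19) did not pass, and Ly6g, Mmp8, Mmp9 and Cxcr2 did not enter. The list of T and NK cells had 5 genes that entered of 23, with Thy1, which fibroblasts and neurons also express, called higher at 2.05-fold and Cd4 at -0.56. Among B cell genes 0 of 9 were called, among mast cell and eosinophil genes 0 of 2, among adipocyte genes 0 of 10 and among red blood cell and platelet genes 0 of 6. Endothelium and pericyte genes had 0 calls among 24 and a median of -0.05, with Pecam1 at 0.28, Cdh5 at -0.29, Kdr at 0.04 and the growth factor Vegfa at -0.87. Of 21 fibroblast genes 4 were called higher, Timp1, S100a4, Mfap5 and Thy1, with a median of 0.24 (0.15 without control array A and 0.38 without control array B), and the defining markers Pdgfra (0.90), Dcn (-0.10) and Lum (0.34) did not pass. Among 9 nerve and Schwann cell genes the neuronal tubulin Tubb3 was called higher (2.28-fold), while Mbp had -0.24 and Ncam1 -0.10. Second probe sets that were not called gave log2 differences of 0.11 for Mfap5 and -0.17 for Tubb3. An array decided the call of Mfap5 (0.85 without control A) and Thy1 (0.98 without eccentric A).

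**Figure D4:**
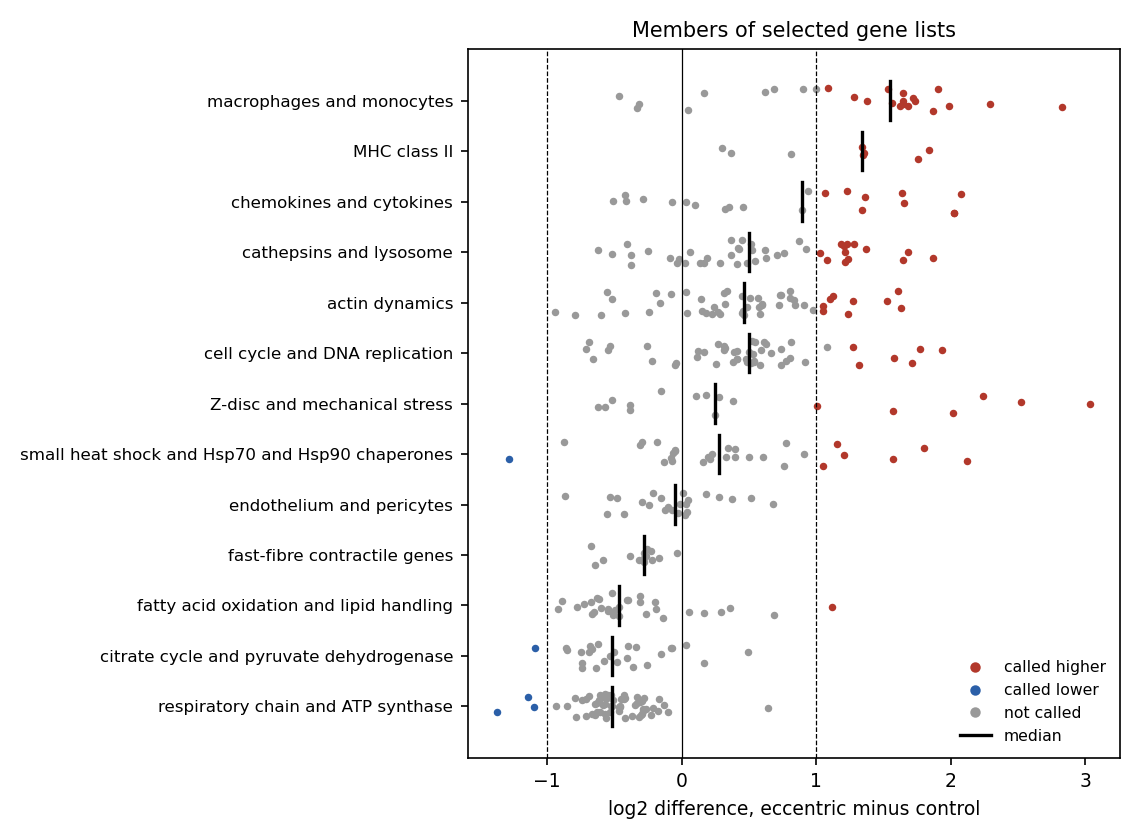
The log2 difference of every member that entered in 13 gene lists, called higher (red), called lower (blue) or not called (grey), with the median of each list as a bar and dashed lines at a 2-fold difference. Macrophage, MHC class II and chemokine genes lie mostly to the right, and 60 of 61 respiratory chain genes lie left of 0, 3 of them called.

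Regulators of muscle regeneration were mixed. Myog, the factor that drives differentiation of myoblasts, had 464 and 415 against 1132 and 767, and Id2, an inhibitor of differentiation, 326 and 432 against 1291 and 1249. Mybph, a myosin binding protein, read 701 and 737 against 3305 and 3514, 4.74-fold higher, and the pools of all these genes were separate. Notch1 (364 and 78.0 against 488 and 391) and Sdc4, a proteoglycan of satellite cells (175 and 51.1 against 298 and 295), were called higher. Control array B of both lay under the floor and control array A above it, so their folds rest on a value set to the floor. Actc1, cardiac actin, which fetal and regenerating fibres also express, was lower, at 22315 and 22314 against 8288 and 8217, and the homeobox factor Six4 was 2.06-fold lower. Of 31 genes that entered 5 were called higher, 3 without control array B or without eccentric array A, and 2 lower, with a median of 0.10, or 0.01 without control array A or eccentric array A and -0.02 with the floor at the 20th percentile. Myod1 (log2 difference 0.42), Myf6 (0.42), Cdh15 (0.24), the embryonic receptor subunit Chrng (-0.05) and the perinatal myosin Myh8 (0.20) did not pass. Other probe sets of Six4 had negative differences as well and were not called. Several of these calls rest on single arrays, since they ended for Myog (0.81 without eccentric A), Notch1 (0.26 without control B and 0.90 without eccentric A), Sdc4 (0.76 without control B) and Six4 (-0.58 without control A and -0.84 without eccentric A).

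Growth signals that restrain or support muscle mass were mixed. Mstn, myostatin, which limits muscle growth, had 903 and 1038 against 399 and 366, 2.53-fold lower. Ghr, the growth hormone receptor, read 532 and 664 against 243 and 188, 2.78-fold lower. The eccentric arrays of both lay below each control array. Tgfb1, below the floor in the control pool, was at least 2.82-fold higher, the TGF-beta induced matrix protein Tgfbi 2.80-fold and the insulin receptor substrate Irs2 2.02-fold. Of 40 genes that entered 3 were called higher and 2 lower, with a median of -0.12, or -0.04 without control array B. Igf1 (log2 difference -0.41), Igf2 (-0.40), follistatin (Fst, 0.28), Akt1 (0.25) and Ccn2, the connective tissue growth factor (0.77), did not pass. The dimmer probe set of the hormone receptor gave a log2 difference of -0.66 for Ghr. Removing an array ended the call of Irs2 (0.91 without control B and 0.62 without eccentric A).

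Genes of proliferation were higher in part. Stmn1, which destabilises microtubules and marks dividing cells, had 139 and 279 against 666 and 853, and Mcm5 and Mcm3, subunits of the replicative helicase, 3.42-fold and 2.41-fold. The mitotic kinase Cdk1, its partner Cks1b and Uhrf1, which maintains DNA methylation, had both control arrays under the floor, with folds of at least 2.99-fold, at least 3.28-fold and at least 2.50-fold. Of 64 cell cycle genes on the array 49 entered, 6 were called higher and 0 lower, and the median was 0.50, with 40 above 0. With the floor at the 60th percentile 3 were called higher, and with it at the 20th percentile 11. Ccna2 differed by 1.08 on the log2 scale but its pools overlapped. Pcna (0.74), Ccnd1 (0.81), Mcm4 (0.82), Mki67 (-0.53) and Aurka (-0.55) did not pass. Of the tubulins 4 were called higher. Tubb6 had 1845 and 2194 against 7701 and 7544, Tubb5 1858 and 1445 against 4584 and 4505 and Tuba1c 3722 and 2901 against 6733 and 7736. Their probe sets may share signal within the family. Tubb4a was lower (272 and 262 against 135 and 107), and of 20 tubulin and microtubule genes 5 were called higher and 1 lower, with a median of 0.48. Of the list 3 were called higher on the mean over all probe sets of a gene. A further probe set that was not called gave 0.96 for Mcm3. Calls lost without an array were those of Tuba1c (0.96 without control B) and Tubb4a (-0.98 without eccentric B).

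Some regulators of the actin cytoskeleton were higher. Tmsb10, which binds actin monomers, had 1410.4 and 1560.3 against 4402 and 4137, the capping protein Capg 680.4 and 592 against 1970.3 and 1901 and the leukocyte plastin Lcp1 399.8 and 496 against 1404 and 1355. They were 2.88-fold, 3.05-fold and 3.10-fold higher with no overlap. Coro1a, the coronin of leukocytes, Coro1c, Actr3 of the Arp2/3 complex, cofilin (Cfl1) and ezrin (Ezr) were called higher between 2.07-fold and 2.36-fold, and Was, a blood cell activator of Arp2/3, at least 2.42-fold. In all 9 of 51 that entered were called higher and 0 lower, with a median of 0.46 and 41 members above 0. The muscle cofilin Cfl2 (log2 difference -0.42), profilin-2 (Pfn2, -0.94) and vimentin (Vim, -0.79) were below 0 and did not pass. Macrophage marker sums were 3-fold apart between the pools, and their part in these differences was not tested. A second probe set, not called, gave -0.01 for Capg. Among the actin genes a call ended for Actr3 (0.97 without control A), Cfl1 (0.84 without control B and 0.91 without eccentric A) and Ezr (0.75 without control B and 0.997 without eccentric A).

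Some genes of the extracellular matrix were higher. Timp1, an inhibitor of matrix proteases, had 730.5 and 1023 against 2631 and 2893, 3.19-fold higher. The proteoglycans biglycan (Bgn, 2764 and 2093 against 5284 and 4758) and versican (Vcan, 94.8 and 261 against 509 and 561) and the collagen Col5a2 (577 and 793 against 1213 and 1573) were called higher, as was thrombospondin-3 (Thbs3), at least 2.51-fold, below the floor in the control pool. Of 45 collagens and matrix proteins that entered 5 were called higher, 3 without control array A, and 0 lower, with a median of 0.24. The major fibrillar collagens did not pass, at -0.41 for Col1a1, -0.08 for Col1a2 and 0.57 for Col3a1, nor did fibronectin (Fn1, 0.52) or tenascin-C (Tnc, 0.39). Of the proteases Adam8, a myeloid metalloprotease, had control signals under the floor (41.1 and 63.0) and read 762 and 700.1 in the eccentric pool, at least 6.05-fold higher. Mmp3 (at least 3.15-fold) and Adam19 (at least 2.28-fold) were also at the floor in the control pool, and the collagen cross-linking enzyme Lox was 2.45-fold higher. Thus 5 of 26 genes of that list were called, with a median of 0.17 (0.37 without control array B), and 2 were called when signal above the floor on all 4 arrays was required. Mmp14 (0.60) and Plau (0.37) were not called. Second probe sets that were not called gave 0.66 for Bgn and -0.41 for Lox. With an array left out, calls ended for Bgn (0.86 without control B and 0.98 without eccentric A) and Col5a2 (0.80 without control A and 0.84 without eccentric B).

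Among lysosomal genes more were called higher than the background of 5.16%, in a list drawn up with earlier results of these data known. Cd68 and Ctss also belong to the macrophage list. The cysteine proteases cathepsin L (Ctsl, 2028 and 2155 against 4757 and 4755), cathepsin S (Ctss, 2124 and 2395 against 7196 and 6923) and legumain (Lgmn, 600.5 and 843 against 2176 and 2406) were higher. So were the GM2 activator Gm2a (2.12-fold), the acid lipase Lipa (2.33-fold), the mannosidase Man2b1 (2.04-fold), cathepsins Z, H, C and A (Ctsz 2.59-fold, Ctsh 2.35-fold, Ctsc 2.32-fold, Ctsa 2.30-fold), the inhibitor cystatin B (Cstb 2.44-fold) and the glycosidase Gusb (2.35-fold). Of 44 that entered 13 were called higher and 0 lower, with a median of 0.50 and 35 members above 0. Leaving out 1 array gave as few as 11 lysosomal calls. Cathepsin B (Ctsb, log2 difference 0.88), cathepsin D (Ctsd, 0.42), cathepsin K of osteoclasts (Ctsk, -0.03) and the muscle acid glucosidase Gaa (-0.02) did not pass. The proteasome stood at a median of 0.08, with 1 of 33 genes called, the assembly chaperone Psmd5 (245 and 669 against 1084 and 1115). Among ubiquitin enzymes and autophagy genes Ube2b was lower (6384 and 6287 against 3097 and 3019), 1 of 46, and the autophagy genes Map1lc3b (-0.56), Bnip3 (-0.80) and Sqstm1 (0.24) did not pass. Of 22 apoptosis genes Tradd was called higher and Cycs, cytochrome c, lower, while Bcl2l11 (0.40) and Mcl1 (0.30) were not called. A second probe set that was not called gave -0.34 for Man2b1. Here the calls that rest on an array were those of Cycs (-0.79 without control B), Gm2a (0.79 without control A and 0.82 without eccentric B), Lipa (0.93 without control A), Man2b1 (0.95 without control B and 0.90 without eccentric B), Psmd5 (0.72 without control A) and Tradd (0.81 without control A and 0.65 without eccentric B).

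Genes that make ribosomes and proteins showed small differences. Cytosolic ribosomal proteins had 0 calls among 24 and a median of 0.22, or 0.10 without control array B. In the nucleolar list 24 of 28 genes lay above 0, with a median of 0.35, and Nhp2, a protein of small nucleolar particles, had 723 and 616 against 1459 and 1505. Rrp12, an export factor of ribosomal subunits, was also called, and fibrillarin (Fbl, log2 difference 0.80), nucleolin (Ncl, 0.66) and Npm1 (0.52) did not pass. Of 48 translation factors and tRNA synthetases 2 were called higher with a median of 0.00, Eif1a and Eef1a1 (6408 and 6867 against 13936 and 12634), the elongation factor that most tissues use. Eef1a2, the form of adult muscle, had -0.44 and was not called. The splicing factor Srsf6 was 2.72-fold higher, the only call among 50 splicing genes. A second probe set of the initiation factor gave 0.49 for Eif1a. Without control array A or eccentric array A calls ended for Eef1a1 (0.95 without control A and 0.93 without eccentric A), Eif1a (0.77 without control A) and Rrp12 (0.78 without control A).

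Contractile genes of fast fibres had negative differences throughout and 0 were called. All 14 that entered had log2 differences below 0, from -0.67 for the calcium store protein Casq1 and -0.64 for the regulatory light chain Mylpf to -0.04 for Tpm1, with a median of -0.28. Myh4 had 49300 and 37779 against 36266 and 35362, so 1 control array lay close to the eccentric arrays. With control array A left out the list's median was -0.13, and with control array B left out it was -0.47. After quantile normalization of the arrays it was -0.03. Of 12 slow-fibre and cardiac genes Csrp3 and Atp2a2, the slow calcium pump (40.7 and 158 against 282 and 293), were called higher and Actc1 lower, with a median of -0.33 that was -0.50 without control array A and -0.12 without eccentric array A. Slow troponins and myosin did not pass, at -0.51 for Tnnc1, -0.17 for Tnni1 and -0.02 for Myh7. Calcium handling had 2 calls up and 1 down among 18. Rcan1, an inhibitor and target of calcineurin, had 1089.6 and 1145 against 2360 and 2374, the ryanodine receptor partner Fkbp1b was 2.02-fold higher, and the calcineurin subunit Ppp3cb was 2.23-fold lower. The release channel Ryr1 (-0.30) and the voltage sensor Cacna1s (-0.46) did not pass. Calls that ended with an array left out were those of Atp2a2 (0.87 without control A), Fkbp1b (0.995 without control B and 0.98 without eccentric A) and Ppp3cb (-0.86 without control B).

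At the fibre surface single genes were lower. Aqp4, the water channel of fast fibres held in the dystrophin complex, had 1338 and 1539.6 against 391 and 419, 3.55-fold lower, with both probe sets called. It was the only call among 17 genes of the dystrophin complex and sarcolemma, where Dmd itself had a log2 difference of -0.79, Sgca -0.52, Dag1 -0.28 and the laminin receptor Itga7 0.80. Ache, acetylcholinesterase of the neuromuscular junction, read 536 and 577 against 332 and 129, lower but with the eccentric arrays more than 2-fold apart, and the receptor subunits Chrna1 (-0.35) and Chrne (0.21) did not pass. Of 29 ion channels and pumps 4 were lower and 2 higher, with a median of -0.38. Without eccentric array B 2 were called lower, and on the mean over all probe sets the median was -0.20. Kcnd3, a fast potassium channel, dropped under the floor on the eccentric arrays (424 and 437 against 94.4 and 83.5) and was at least 3.56-fold lower. Both parts of the ATP-sensitive potassium channel, the pore Kcnj11 (439 and 388 against 251 and 125) and its partner Abcc9 (677 and 834 against 387 and 359), were lower, as was the sodium pump subunit Atp1b2 (2.02-fold). Fxyd5, a pump regulator, and P2rx4, an ATP-gated channel, were 2.25-fold and at least 2.25-fold higher, and the muscle form Fxyd1 had -0.92. Among 32 solute carriers the amino acid carrier Slc7a7 was at least 2.55-fold higher and the glucose-6-phosphate carrier Slc37a4 2.29-fold lower, and the glucose carrier Slc2a4 (-0.46) did not pass. Calls of this group that did not survive the loss of an array were those of Abcc9 (-0.86 without control B and -0.96 without eccentric B), Ache (-0.75 without eccentric B), Atp1b2 (-0.97 without control A and -0.94 without eccentric A), Kcnj11 (-0.72 without eccentric B) and Slc37a4 (-0.98 without eccentric A).

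Enzymes of energy metabolism had negative medians as lists while few passed the rule. Of 61 genes of the respiratory chain and ATP synthase 60 lay below 0, with a median of -0.52 against -0.02 for the genes that entered, and 3 were called lower. Ndufs4, a subunit of complex I, had 418 and 516 against 197 and 164, and the ATP synthase subunit Atp5pb 523 and 616 against 162 and 407. Cycs, which carries electrons to complex IV, had 2116 and 3247 against 1203 and 1246. In these genes both eccentric arrays lay below both control arrays, but for Atp5pb and Cycs the arrays of a pool differed by more than 1.5-fold. The exception above 0 was Cox6a1 (0.64), the non-muscle form of a complex IV subunit. Tmem70, an assembly factor of the ATP synthase outside the list, had 2318 and 2386 against 704 and 807, 3.12-fold lower. In the citrate cycle 23 of 26 genes lay below 0, with a median of -0.52, and Idh3a was called, at 5995 and 5871 against 2795 and 2770. Sdha (-0.68), Cs (-0.64), Pdha1 (-0.75) and Dld (-0.85) did not pass. Of 31 genes of fatty acid use 25 lay below 0, with a median of -0.47 and 0 called lower, and Acsl5, an acyl-CoA synthetase, was 2.17-fold higher. The uncoupling protein Ucp3 (-0.92), Acadm (-0.89) and Fabp3 (-0.73) did not pass. Leaving out any 1 array kept the medians of these lists between -0.56 and -0.39. The summed fibre markers lay lower in the eccentric pool as well, and their part in these differences was not tested. Leaving out an array ended the calls of Atp5pb (-0.48 without eccentric A) and Cycs (-0.79 without control B).

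Genes of carbohydrate and amino acid metabolism differed in both directions. Glycolysis had 0 calls among 14 and a median of -0.42, or -0.16 after quantile normalization of the arrays. Among uncalled genes the muscle isoforms Eno3 (-0.42), Pfkm (-0.41) and Pgam2 (-0.58) lay below 0, and the widely expressed Pgam1 (0.86), Pfkl (0.58) and Hk1 (0.55) lay above it. Of 16 glycogen and glycerol phosphate genes 15 lay below 0. Gpd1, glycerol-3-phosphate dehydrogenase, had 3334 and 3851 against 1663 and 1486 on the probe set used, with the other also called, and Phka1, a subunit of phosphorylase kinase, 2183 and 2687 against 1261 and 1081. In the pentose phosphate and nucleotide list Tkt, transketolase (159 and 543 against 827 and 784), and Ampd3, the AMP deaminase of non-muscle cells (at least 2.29-fold), were called higher among 23, and Ak1, the muscle adenylate kinase, had -0.74. Amino acid and polyamine genes held 4 higher calls and 1 lower among 23, with a median of -0.31, and 2 higher calls were left without eccentric array A. Psat1 of serine synthesis had 176 and 155 against 525 and 548, and the polyamine enzymes Sat1 and Srm were 2.98-fold and 2.03-fold higher. Arg1, arginase of alternatively activated macrophages, was at the floor in the control pool (104 and 16.5) and read 254 and 237 in the eccentric pool. Hibadh, an enzyme of valine breakdown, was 2.11-fold lower. Among these the calls ended for Arg1 (0.97 without eccentric A), Phka1 (-0.90 without control B and -0.94 without eccentric B), Srm (0.99 without control A and 0.88 without eccentric A) and Tkt (0.57 without control A).

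**Figure D5:**
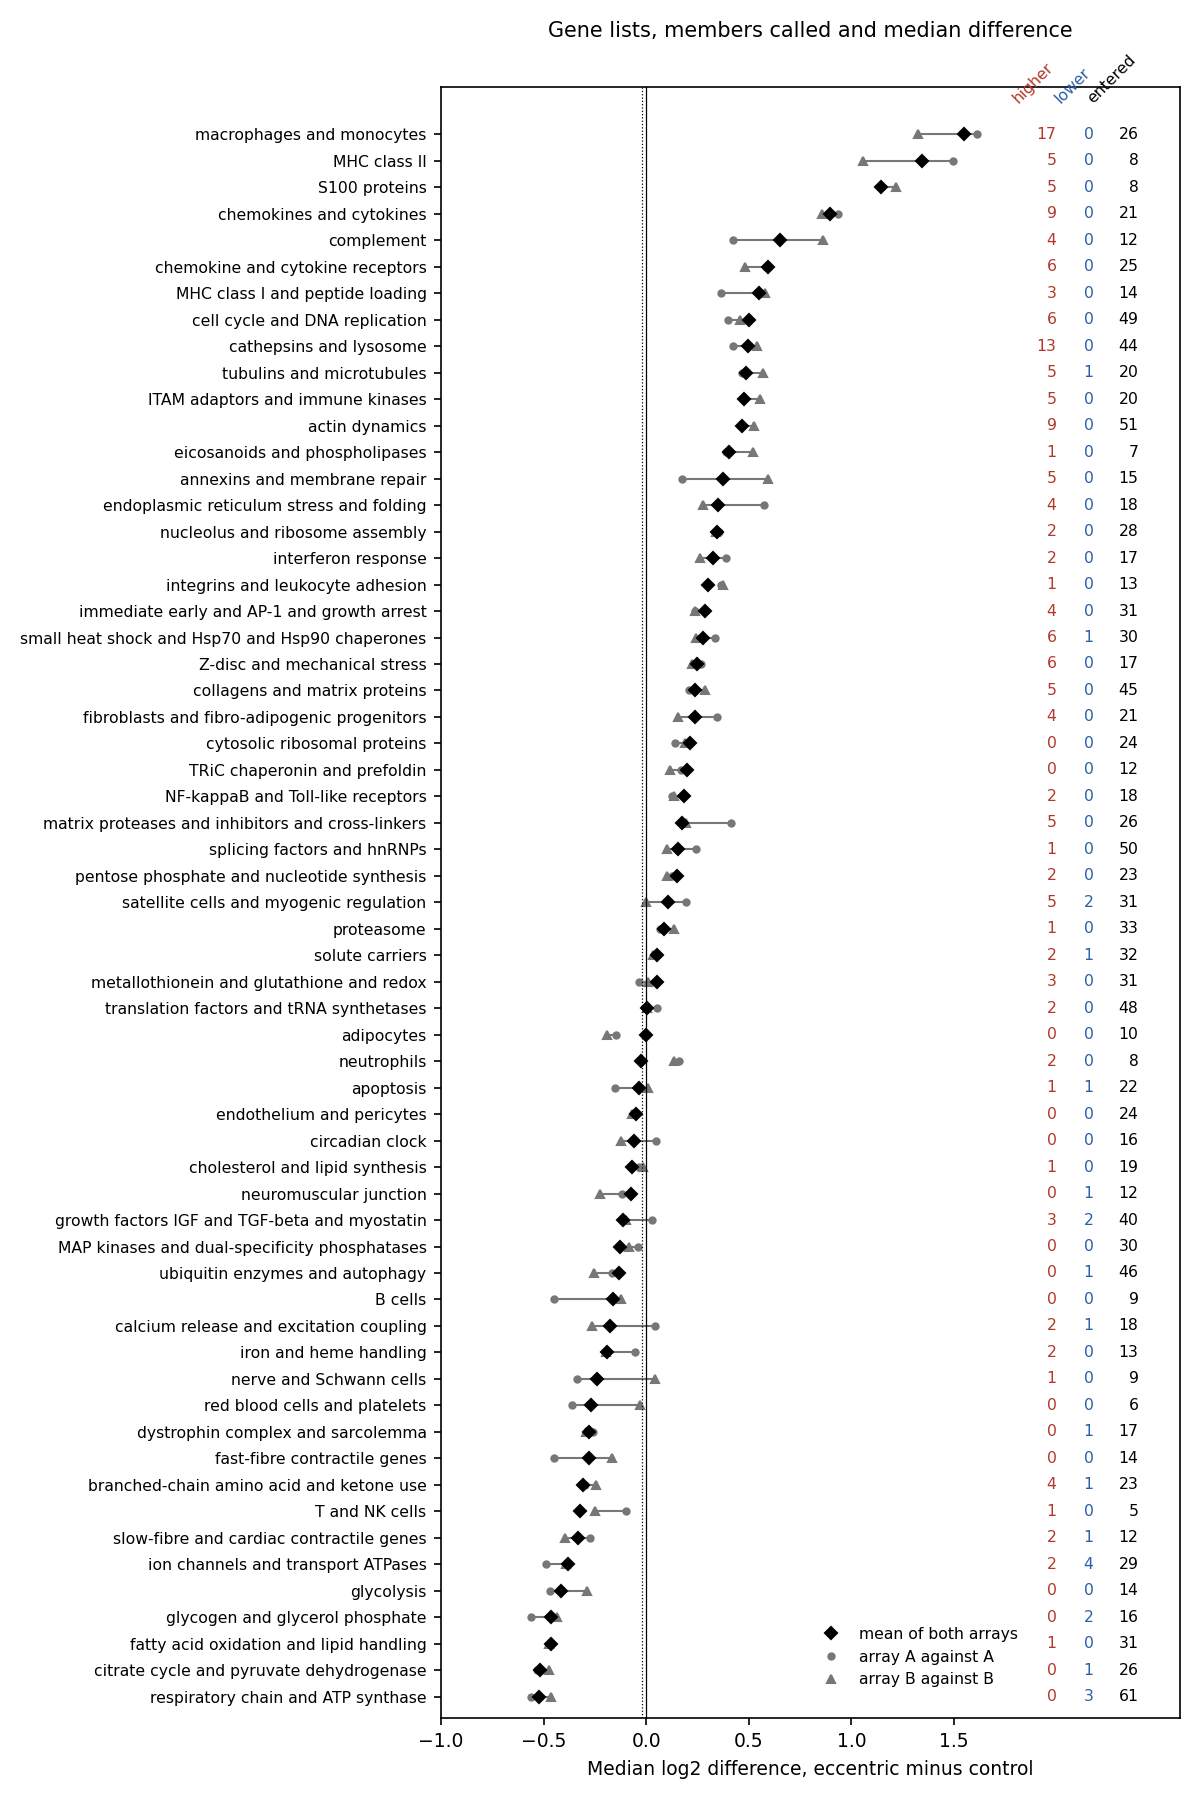
Median log2 difference of the members that entered for each list with at least 3 of them (diamond), with the medians of array A against array A (circle) and array B against array B (triangle), the median of all genes that entered as a dotted line, and counts of members called higher, called lower and entered at the right. Macrophage (1.55), MHC class II (1.34) and S100 (1.14) lists are at the top, and respiratory chain and citrate cycle lists (-0.52 each) at the bottom.

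The remaining lists held few calls. Of 19 cholesterol and lipid synthesis genes only the cholesterol exporter Abca1 was called, at 2.27-fold higher, and among 7 eicosanoid and phospholipase genes only the lipid droplet protein Plin2, at 2.03-fold higher. Circadian clock genes had 0 calls among 16 and a median of -0.06, with Dbp at -0.35, Arntl at 0.17 and Nr1d2 at -0.98. MAP kinases and their phosphatases had 0 calls among 30. In the NF-kappaB and Toll-like receptor list Myd88, the adaptor of those receptors (141 and 66.6 against 256 and 292), and Traf5 were called higher among 18, while Nfkbia (0.18), Rela (0.20) and Nfkb2 (0.47) did not pass. Each of these 4 calls ended when some array was left out, with log2 differences of Abca1 (0.85 without control A), Myd88 (0.95 without control B and 0.97 without eccentric B), Plin2 (0.89 without control A and 0.96 without eccentric A) and Traf5 (0.58 without control A).

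Genes outside the lists filled out both ends of the ranking, and they were reached by the size of their difference alone. Hal, which deaminates histidine, had 209 and 279.8 against 1245 and 1215, 5.08-fold higher. Saa3, an acute phase protein made by macrophages and stromal cells, had 441 and 344 against 1592 and 1824, and Ms4a6c, a membrane protein of myeloid cells, 163 and 229 against 818 and 754. Each had both eccentric arrays at more than 3-fold the higher control array. Pea15a, which holds the kinase ERK in the cytoplasm, and Lst1, a leukocyte transcript, lay under the floor on both control arrays and were higher by at least 5.41-fold and at least 4.45-fold. Nt5dc2 was under it as well (55.0 and 109.5 against 523 and 342). At the other end Sar1b, a GTPase of vesicle export, had 4087 and 4226 against 1721 and 1508, and Art3, a member of the ADP-ribosyltransferase family, 3268 and 3907 against 1429 and 1547. Nrep (2855 and 2343 against 1057 and 1019), Itm2a (1826 and 2191 against 804 and 850.3) and the nuclear receptor Rxrg (491 and 514 against 223 and 184) were lower by 2.49-fold, 2.42-fold and 2.48-fold. Their eccentric arrays all lay below the lower control array. Azi2, an adaptor of innate immune kinases, was 2.43-fold lower, Hipk3, a nuclear kinase, and Tbx2, a T-box factor, lay under the floor on both eccentric arrays and were lower by at least 2.58-fold and at least 2.12-fold. Rag1 (600.1 and 234 against 151 and 190), known as the recombinase of lymphocytes, Gpcpd1, a phosphodiesterase, and Fcgbp, an IgG binding protein, were lower on probe sets chosen under relaxed rules. Other probe sets that were not called gave -0.31 for Fcgbp, -0.84 for Sar1b and -0.37 for Tbx2. Removal of an array ended the calls of Fcgbp (-0.83 without eccentric B), Gpcpd1 (-0.77 without control B and -0.85 without eccentric A) and Rag1 (-0.47 without control A and -0.98 without eccentric A).

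The arrays of the isometric pool share the control arrays with the eccentric comparison, so the values are set side by side and no overlap is drawn from them. In muscle after 50 isometric contractions Ankrd1 had 635 and 655, Csrp3 1637 and 1469.5, Xirp1 2088 and 2548 and Ankrd2 1482 and 1422. All lay nearer, in signal, to the control arrays (Ankrd1 273 and 473, Csrp3 1049 and 1133, Xirp1 2251 and 2256, Ankrd2 1107 and 998) than to the eccentric arrays (2989 and 2909, 6022 and 6505, 10913 and 10393, 4260.3 and 4246). Lysozyme (Lyz2) had 4911 and 4081 in the isometric pool, between 1964 and 2070.1 in the control and 6227 and 6374 in the eccentric pool. Ccl2 had 1439 and 1112, close to its eccentric values of 1688 and 1767. Junb had 1065 and 983 beside eccentric values of 758 and 991. Mstn had 848 and 722, Aqp4 1905 and 1026 and Actc1 21127 and 26106, all above their eccentric values. The difference between exercised pools was not tested here.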

How the data were processed

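Gene expression was measured on 6 Affymetrix MGU74Av2 arrays, of which the control and eccentric arrays enter the comparison. The deposited values are intensities per probe set on a linear scale, made by the authors. Software, background correction and probe summary: not given in the sources used here, which leaves their effect on dim probe sets unknown. The mean over the middle of each array's values, with 2% trimmed at each end, was brought to the same value in all arrays. The largest scaling factor was 1.000022, so the deposited values stayed almost unchanged. Probe sets were named through GEO's platform annotation and 10817 of the 10833 with a single gene were found in the RefSeq gene table. Where a gene had several probe sets, as 2073 genes did, the one with the highest mean over the 6 arrays was used. Values were raised to the floor and compared as log2 differences of pool means. No test was run, since each group is 1 pool. The calling rule was run on simulated data, with differences well above 2-fold planted only in genes far above the floor. That run does not cover calls near 2-fold or near the floor. Members and gene lists were chosen with earlier results of these data known. The text names the 20 called genes with the largest difference in each direction among those above the floor on all 4 arrays, the 6 higher genes with the largest bounds, the 4 lower genes with a bound, and list members, of which those beyond 6 in a list were picked after their values were seen. Promoter windows and their coordinates are RefSeq's, build GRCm38.p6. Computation used Python 3.11.15 with matplotlib 3.10.9, scipy 1.17.1, pandas 2.3.3 and numpy 2.4.6. Signal over the floor limits precision: 59.8% to 61.2% of probe sets lay above it on an array.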

Additional observations from a re-analysis of the deposited data

Results flagged for a closer look

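Isometric and eccentric values are set against shared control arrays. Among the 192 named called genes, 4 differed from control in opposite directions in the exercised pools, in every array pairing. Hspa1a, called higher after eccentric contractions, had a log2 difference of -0.58 in the isometric pool, and Saa3, an acute phase protein called higher, had -1.61. Gpd1 and Nrep, called lower after eccentric contractions, had 0.19 and 0.28 in the isometric pool. Both values are no larger than the gap between the control arrays of the gene (Gpd1 3334 and 3851, Nrep 2855 and 2343). These differences between the exercised pools were not tested, and each pool is 1 sample.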

How the results depend on the processing

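The numbers of genes called higher, called lower and called in all, 293, 60 and 353, stayed within 1.5 times under median scaling, quantile normalization, a requirement of signal above the floor on all 4 arrays and the mean over probe sets. A floor at the 20th percentile gave 185 lower and 617 in all, and a floor at the 60th percentile 164 higher, 26 lower and 190 in all. Without a floor, on log2(signal + 100), 34 were lower and 234 called in all. A 1.5-fold threshold gave 691, 412 and 1103, and a 3-fold threshold 71, 4 and 75. Array A against array A alone gave 144 lower and array B against array B 108. Leaving out 1 array gave 289 to 365 higher, 78 to 119 lower, the most without control array B, and 369 to 484 in all, with fewer pairings needed. Between 286 and 316 of the 353 were then called again. The share of calls that are higher was 83% and dropped to 70% with the low floor and 62.6% at 1.5-fold. Of the 192 named called genes 64 lost the call with the floor at the 60th percentile, 45 without a floor and 41 with signal above the floor on all 4 arrays. The call was lost by 36 on the mean over probe sets and by 13 to 24 with 1 array left out. In these settings 0 changed sign. Only another scaling or the mean over probe sets could have changed a sign, because a call needs the same sign in all 4 pairings. Of 66 called genes with another probe set that entered, 19 had one of opposite sign. No paired analysis was possible because the letters A and B mark the arrays of a pool and pair no samples. Values under the floor have no order, which limits dim genes.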
